A study of Mus musculus with 15 samples.

Results

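The SIN3 histone deacetylase complex was followed through 10 of its genes, Sin3a, Sin3b, Hdac1, Hdac2, Sap30, Sap130, Suds3, Ing1, Ing2 and Phf12. They were taken by gene symbol from an array table of 21212 probe sets, 18786 of them with exactly 1 symbol, and each of the 10 had exactly 1 probe set. The arrays came from mouse embryonic stem cells of the line E14TG2a.4 at passage 17, cultured on gelatin with leukaemia inhibitory factor. Every group, controls included, had been infected with a lentivirus carrying a short hairpin RNA (shRNA) in the PLKO.1 vector, and was kept in puromycin at 2 µg per ml for 72 hours, starting 36 hours after infection. One experiment, called the Tet1 set here, compared a scrambled hairpin with the hairpins Tet1 shRNA 4 and Tet1 shRNA 5. A second, the Sin3A set, compared its own scrambled hairpin with 1 Sin3A shRNA. All 5 groups had 3 arrays, 15 in all. The labels do not say whether the arrays of a group were separate cultures, so the p-values measure only the spread between arrays, which may be technical. Only 1 Sin3A hairpin was used, so an effect of that hairpin on other transcripts cannot be told apart from the loss of Sin3a.

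SIN3 proteins are scaffolds without enzymatic activity or DNA binding of their own. They gather the deacetylases HDAC1 and HDAC2, which remove acetyl groups from histone tails, and are brought to promoters by DNA-binding factors or by subunits that read methylated histone H3. Mammals have a pair of scaffolds, SIN3A and SIN3B, and SIN3A is required for the growth of early embryonic cells. TET1, which oxidises methylated cytosine, has been found associated with SIN3A. The question followed here was whether the transcripts of the other subunits move when Sin3a or Tet1 is depleted.

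Values are log2 expression levels, on which 1 unit is a doubling. The arrays of the Tet1 set had means of 7.08 to 7.11 and those of the Sin3A set a mean of 8.09, so levels were compared only within a set. Gaps between paralogues, given further on, were followed across groups only as changes, since probe sets differ in response. Replicate arrays correlated with r between 0.994 and 0.998 across probe sets. All 10 embryonic stem cell markers examined, among them Pou5f1, Nanog and Sox2, lay above the median probe set in every group. Of these 10, 2 rose and 1 fell with each Tet1 hairpin (30.0% called, against 11.6% of all probe sets for shRNA 4 and 13.8% for shRNA 5). With the Sin3A shRNA 1 rose and 1 fell (20.0%, against 24.8%). Among probe sets above the median level, fitted alone, the shares were 25.6%, 30.4% and 47.2%. Of 9 fibroblast markers, 3 lay above the median probe set with the scrambled hairpin and 2 with each Tet1 hairpin in the Tet1 set. In the Sin3A set 4 did so with the scrambled hairpin and 3 with the Sin3A shRNA. Thy1 rose with both Tet1 hairpins (0.82 and 0.81 on the log2 scale), and Thy1 (-0.23) and Pdgfrb (-0.58) fell with the Sin3A shRNA. These calls were 11.1% of the fibroblast markers with each Tet1 hairpin and 22.2% with the Sin3A shRNA. All were below the shares of all probe sets (11.6%, 13.8% and 24.8%). The mean level of 8 trophectoderm markers was 8.72 to 8.77 in the scrambled arrays of the Sin3A set and 8.40 to 8.44 with the Sin3A shRNA, where 4 of the 8 fell and 1 rose (62.5% called, against 24.8% of all probe sets). In the Tet1 set that mean was 7.23 to 7.42 with the scrambled hairpin, 7.102 to 7.156 with shRNA 4 and 7.20 to 7.24 with shRNA 5, with 2 markers higher and 3 lower for each hairpin (62.5% called, against 11.6% of all probe sets for shRNA 4 and 13.8% for shRNA 5). Of 8 primitive endoderm markers, 2 rose and 1 fell with the Sin3A shRNA (37.5% called), 2 rose with shRNA 4 (25.0%), and 2 rose and 1 fell with shRNA 5 (37.5%). Their mean level was 6.88 to 7.07 with the scrambled hairpin of the Tet1 set, 7.14 to 7.22 with shRNA 4 and 7.12 to 7.19 with shRNA 5, and it was 8.05 to 8.09 against 8.14 to 8.16 in the Sin3A set. Whether a change in the mixture of cells had a part in the values below was not tested, and in bulk RNA fewer cells of a type and less RNA per cell cannot be told apart. The targeted Tet1 transcript lay at 12.17 to 12.21 in the scrambled arrays, 10.39 to 10.44 with shRNA 4 and 9.94 to 10.20 with shRNA 5. In the Sin3A set Tet1 rose from 12.46 ± 0.05 to 12.77 ± 0.08 (SD, n = 3 each, limma adjusted p = 0.0068), past the threshold in 12 of 12 alternative analyses, and Tet2 rose by 0.21 (0.033), past it in 5 of 12.

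The Sin3A knockdown moved 6 of the 10 members (limma, Benjamini-Hochberg adjusted p under 0.05 over all probe sets). Ing2, Ing1, Sap30 and Sap130 rose, and Sin3a itself and Phf12 fell. Sin3a was the target, so its call was set by the design. Over the whole array 24.8% of probe sets passed in this comparison, 12.2% higher and 12.6% lower. Every member lay above the median probe set on the scrambled arrays (Ing2 was lowest, above 51.4% of probe sets in the Sin3A set). Among probe sets above the median level 47.2% passed when fitted alone, with adjustment over those probe sets only. The members were called in the fit of all probe sets, so these shares are not directly comparable. The groups did not overlap for 9 members, 6 higher and 3 lower, against 40.5% of all probe sets (20.4% higher and 20.1% lower). The other scaffold, Sin3b, and the deacetylases Hdac1 and Hdac2 did not pass. The median absolute log2 difference was 0.37 over the 10 members, the targeted gene included, and 0.11 over all probe sets, and the median signed difference was 0.16 against 0.01.

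**Figure D1:**
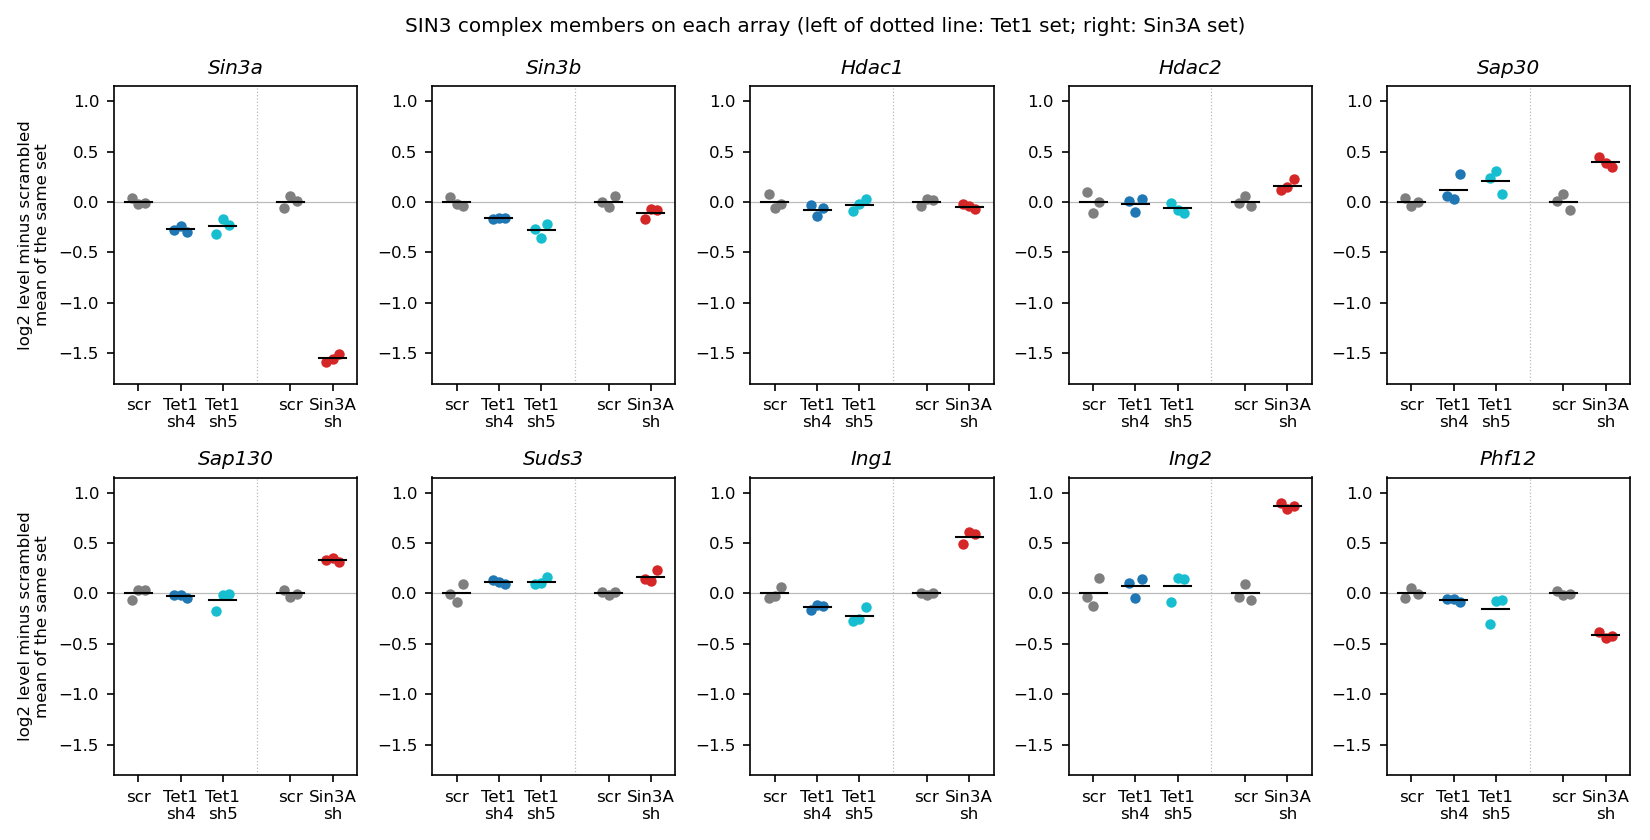
Log2 level of each member on each array, minus the mean of the scrambled arrays (scr) of the same set. Points are arrays, black lines are group means, and the dotted line divides the Tet1 set from the Sin3A set. With the Sin3A shRNA, Sin3a, Sin3b and Phf12 lie below all scrambled arrays of that set. Ing1, Ing2, Sap30, Sap130, Suds3 and Hdac2 lie above all of them, and only Hdac1 overlaps. Over all probe sets, 40.5% did not overlap in this comparison. In the Tet1 set most differences are under 0.3.

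Sin3a, the targeted scaffold, read 10.87, 10.99 and 10.94 on the scrambled arrays of the Sin3A set and 9.35, 9.38 and 9.43 with the Sin3A shRNA. The change was -65.8%, with a 95% interval of -68.7% to -62.7% (log2 difference -1.55 ± 0.05, SE, limma adjusted p = 1.3e-05). All 3 knockdown arrays lay far below the scrambled ones, and Sin3a ranked 9 from the lowest of the 21212 differences.

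Sin3b encodes the paralogous scaffold, which can take up HDAC1 and HDAC2 as SIN3A does. It read 9.68, 9.63 and 9.74 on the scrambled arrays and 9.51, 9.61 and 9.60 with the Sin3A shRNA. The knockdown arrays lay below the scrambled ones without overlap. The difference of -7.67% did not pass (limma adjusted p = 0.18), and its 95% interval ran from -15.4% to 0.79%. An increase of Sin3b transcript of more than 0.79% was therefore outside the interval.

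**Figure D2:**
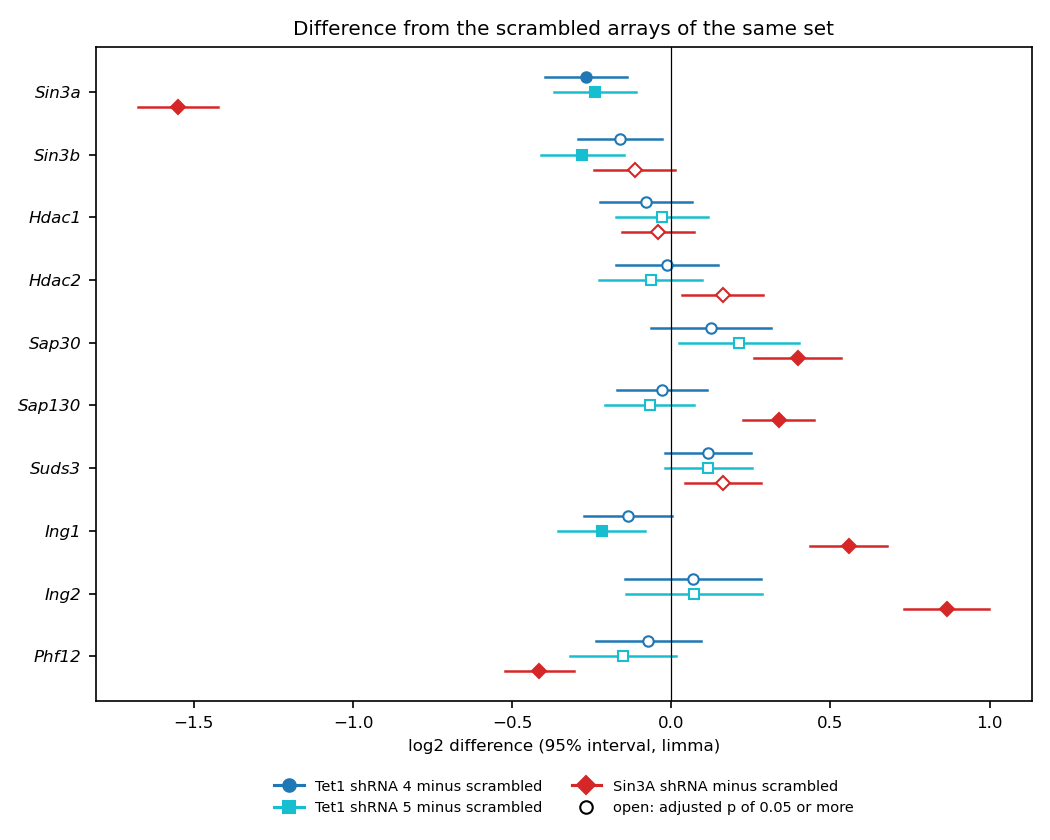
Log2 difference of each member from the scrambled arrays of the same set for the 3 hairpins, with 95% intervals from limma (n = 3 arrays per group); filled symbols passed an adjusted p under 0.05 and open symbols did not. The Sin3A shRNA (diamonds) gave the widest range, from -1.55 for Sin3a to 0.87 for Ing2, and the interval of Sin3b ends near 0.

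Neither catalytic subunit passed, but the groups overlapped for Hdac1 only. Hdac1 read 12.02, 12.09 and 12.08 with the scrambled hairpin and 12.04, 12.02 and 11.99 with the Sin3A shRNA, and the groups overlapped (-2.86%, 95% interval -10.1% to 4.98%, limma adjusted p = 0.59). Hdac2 read 11.13, 11.20 and 11.10 against 11.26, 11.29 and 11.37, so that all knockdown arrays were above all scrambled ones. Its difference of 11.8% (95% interval 2.39% to 22.1%) did not pass (limma adjusted p = 0.069). It passed when dim probe sets were left out (limma adjusted p = 0.028) and with an intensity trend (0.023).

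The ING proteins carry a PHD finger that binds methylated histone H3 and so tie the complex to marked promoters. Ing2 showed the largest rise among the members. It read 8.08, 8.21 and 8.05 on the scrambled arrays and 9.01, 8.95 and 8.98 with the Sin3A shRNA, a 1.82-fold increase (log2 difference 0.87 ± 0.06, SE, limma adjusted p = 8.6e-05). Ing1 read 9.88, 9.86 and 9.88 against 10.36, 10.48 and 10.46, a 1.47-fold increase (0.56 ± 0.05, limma adjusted p = 0.00034). In both genes the knockdown and scrambled arrays were well apart. Of all probe sets, 0.957% had a larger absolute difference than Ing2 and 3.71% a larger one than Ing1.

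Sap30, a small subunit that binds the SIN3 scaffold and helps to hold the deacetylases, read 10.96, 11.03 and 10.87 with the scrambled hairpin and 11.40, 11.34 and 11.30 with the Sin3A shRNA. The 1.32-fold increase passed (0.40 ± 0.06, limma adjusted p = 0.0023). Sap130, another SIN3-associated protein, read 12.05, 11.98 and 12.01 against 12.35, 12.37 and 12.33, a 1.26-fold increase (0.34 ± 0.05, limma adjusted p = 0.0019). Suds3, the orthologue of yeast Sds3 and a subunit that supports deacetylase activity, read 10.91, 10.88 and 10.91 against 11.04, 11.02 and 11.13. Its groups did not overlap, but the difference of 0.16 ± 0.05 missed the threshold (limma adjusted p = 0.055) and was past it in 3 of 12 alternative analyses.

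Phf12, also called PF1, is a PHD-finger protein that connects SIN3 with the chromodomain protein MRG15. It was the one member besides Sin3a that fell. It read 10.81, 10.77 and 10.78 on the scrambled arrays and 10.40, 10.35 and 10.37 with the Sin3A shRNA, a decrease of 0.41 ± 0.05 on the log2 scale (limma adjusted p = 0.0007), or -25.0%. The 6 calls of this comparison, Sin3a, Sap30, Sap130, Ing1, Ing2 and Phf12, passed in each of 12 alternative analyses, 6 of which left out 1 array. Without replicate 2 of the Sin3A shRNA the share of all probe sets that passed was 15.8% in place of 24.8%.

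Promoter sequences from RefSeq (build GRCm38.p6) were matched by gene ID for 8 members, and Hdac1 and Sap130 had no entry. The 250 bases before the annotated start are shown for Ing2 and Sap30, which rose with the Sin3A shRNA, for Phf12, which fell, and for Sin3b, which did not pass, so that members that moved differently can be set side by side. They are written 5′ to 3′ on the strand of the gene, with each CpG, the dinucleotide that DNA methylation and TET enzymes act on, in capitals. The Ing2 window is chr8:47675160-47675409 (minus strand), that of Sap30 is chr8:57487861-57488110 (minus), that of Phf12 is chr11:77982566-77982815 (plus) and that of Sin3b is chr8:72723020-72723269 (plus).
Ing2: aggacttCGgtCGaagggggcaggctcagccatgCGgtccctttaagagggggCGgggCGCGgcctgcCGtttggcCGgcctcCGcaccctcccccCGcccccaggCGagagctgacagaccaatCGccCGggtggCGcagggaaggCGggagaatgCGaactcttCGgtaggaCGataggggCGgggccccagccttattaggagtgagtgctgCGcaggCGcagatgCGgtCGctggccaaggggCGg
Sap30: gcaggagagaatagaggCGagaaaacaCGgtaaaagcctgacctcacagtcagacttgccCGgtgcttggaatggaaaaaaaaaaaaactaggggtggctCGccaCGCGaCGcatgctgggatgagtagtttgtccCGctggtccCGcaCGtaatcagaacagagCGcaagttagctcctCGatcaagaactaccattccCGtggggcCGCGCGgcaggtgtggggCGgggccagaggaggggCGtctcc
Phf12: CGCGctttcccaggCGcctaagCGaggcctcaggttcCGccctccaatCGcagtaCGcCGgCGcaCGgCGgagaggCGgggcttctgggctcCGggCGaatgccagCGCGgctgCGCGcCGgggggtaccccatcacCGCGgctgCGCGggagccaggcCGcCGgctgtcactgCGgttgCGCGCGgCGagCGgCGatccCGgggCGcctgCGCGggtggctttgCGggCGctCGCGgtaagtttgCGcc
Sin3b: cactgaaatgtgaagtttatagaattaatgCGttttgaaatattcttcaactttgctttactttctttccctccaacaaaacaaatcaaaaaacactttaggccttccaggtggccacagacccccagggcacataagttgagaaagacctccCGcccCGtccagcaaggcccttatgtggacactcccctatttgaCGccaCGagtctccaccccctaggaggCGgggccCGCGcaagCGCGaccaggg

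Phf12 held 41 CpGs in this window, more than 98.9% of the 32851 windows of this length in the table. Ing2 held 24 (more than 88.0%), Sap30 held 18 (more than 78.3%) and Sin3b held 10 (more than 62.2%), against a median of 6. At least 1 CG was present in 92.1% of all windows. Of the members not printed, Hdac2 held 27 and Suds3 26, the 2 windows of Sin3a held 12 and 19, and the 5 windows of Ing1 held 18 to 36. The motifs TGACGTCA, CACGTG, TTTCGCGC, CCGGAAGT, GGGGCGGGG and CCAAT and those of NRF1 and YY1 were searched on both strands, and all but CCAAT contain a CG and so overlap the CpG count. The GC box GGGGCGGGG was found in windows of Ing1, Ing2 and Sap30 and also of Sin3a, and 10.4% of all windows held it. CCAAT was found in windows of Ing1, Ing2, Phf12 and Sin3a, and 33.8% of all windows held it. The NRF1 motif was found in Ing1 (0.78% of all windows) and CCGGAAGT in Suds3 (2.88%). TGACGTCA, CACGTG, TTTCGCGC and the YY1 motif were found in no member. These shares are per window, and Ing1 and Sin3a had more than 1 window each. No methylation or binding data were used, so these are descriptions of letters only.

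Paralogues were also compared within each array, which shows unequal change and not that either gene stayed constant. With 3 arrays against 3 the exact permutation test cannot go below p = 0.1. The gap of Sin3a over Sin3b fell by 1.43 on the log2 scale with the Sin3A shRNA (exact permutation p = 0.1, two-sided), with no overlap between groups. Sin3a is the target of that hairpin, so the fall of this gap was set by the design. The gap of Ing1 over Ing2 fell by 0.31 (exact p = 0.1, no overlap). The gap of Hdac1 over Hdac2 fell by 0.20 (exact p = 0.1, no overlap). Sap30 and its paralogue Sap30l both rose, and their gap changed by 0.15 with overlapping groups (exact p = 0.2). These 4 pairs were each compared for 3 hairpins, 12 tests in all, and at this group size none can reach an adjusted p under 0.05. With the Tet1 hairpins the gap of Sin3a over Sin3b changed by -0.11 with shRNA 4 and 0.04 with shRNA 5. That of Ing1 over Ing2 changed by -0.21 and -0.29, and that of Hdac1 over Hdac2 by -0.07 and 0.04 (exact p from 0.1 to 0.9). The groups did not overlap for Sin3a over Sin3b and Hdac1 over Hdac2 with shRNA 4 and for Ing1 over Ing2 with shRNA 5. They overlapped in the other Tet1 comparisons, those of Sap30 over Sap30l included.

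**Figure D3:**
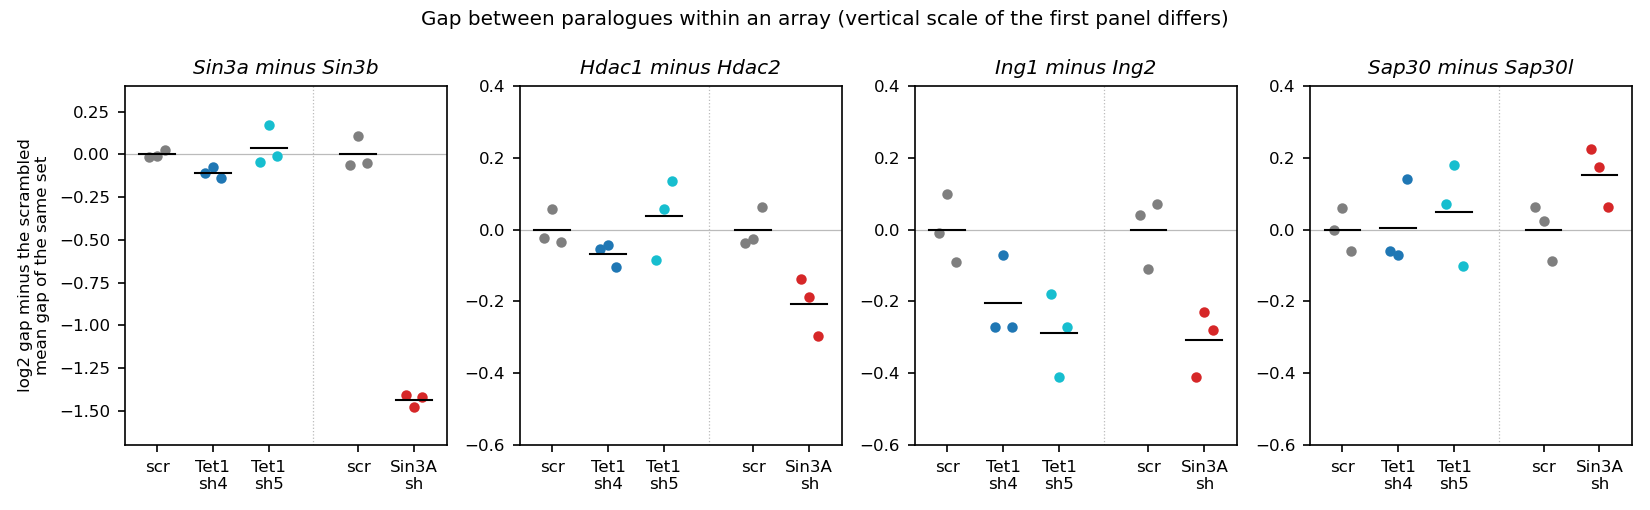
Difference between the log2 values of both paralogues on each array, minus the mean gap of the scrambled arrays (scr) of the same set; points are arrays and black lines are group means. With the Sin3A shRNA, which targets Sin3a, the gap of Sin3a over Sin3b is 1.43 lower, while the other pairs move by 0.31 or less.

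In the Tet1 knockdowns the members that passed were Sin3a with both hairpins and Sin3b and Ing1 with shRNA 5, and all of these fell. With shRNA 4, 0 of 10 members rose and 1 fell, against 11.6% of all probe sets called (6.88% higher and 4.71% lower). With shRNA 5, 0 rose and 3 fell, against 13.8% called (8.37% higher and 5.46% lower). Among probe sets above the median level, where all members lay, 25.6% passed with shRNA 4 and 30.4% with shRNA 5 when fitted alone. Sin3a was the 1 member that fell with both hairpins, as did 3.4% of all probe sets, while 5.4% rose with both. The groups did not overlap for 5 members with each hairpin, 1 higher and 4 lower, against 25% of probe sets with shRNA 4 (14.1% higher and 10.9% lower) and 28.9% with shRNA 5 (17% higher and 11.9% lower). Both comparisons use the same 3 scrambled arrays, so their values are not independent of each other. The median absolute log2 difference of the members was 0.10 with shRNA 4 and 0.13 with shRNA 5, against 0.10 for both over all probe sets.

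Sin3a read 10.31, 10.25 and 10.26 with the scrambled hairpin of the Tet1 set, 10, 10.04 and 9.98 with shRNA 4, and 9.96, 10.10 and 10.05 with shRNA 5. All 6 knockdown arrays lay below the 3 scrambled ones, and the log2 differences of -0.27 and -0.24 passed (limma adjusted p = 0.015 and 0.022). The call was lost without scrambled replicate 1 (limma adjusted p = 0.0504 for shRNA 4 and 0.067 for shRNA 5), without scrambled replicate 3 for shRNA 5 (0.058), and without replicate 1 or 3 of the hairpin in question (0.054 to 0.087). Sin3b read 8.79, 8.72 and 8.70 with the scrambled hairpin, 8.57, 8.58 and 8.58 with shRNA 4, and 8.47, 8.38 and 8.52 with shRNA 5. Its change of -17.6% passed with shRNA 5 (limma adjusted p = 0.011) and was lost without replicate 2 of that hairpin (0.0504). At -10.6%, Sin3b missed the threshold with shRNA 4 (0.12). Between the hairpins the difference was -0.12 and missed it too (limma adjusted p = 0.63), although those groups did not overlap. Sin3b was the 1 member of 10 for which they did not, against 14.9% of all probe sets (8.07% higher and 6.83% lower). Both scaffolds were thus lower with shRNA 5, without a rise in either.

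Ing1 read 9.03, 9.05 and 9.14 with the scrambled hairpin, 8.91, 8.96 and 8.95 with shRNA 4, and 8.80, 8.82 and 8.94 with shRNA 5. The change of -14.1% with shRNA 5 was close to the threshold (limma adjusted p = 0.042). It passed in 6 of 16 alternative analyses and was lost with a replicate block (0.052), in a fit of the 6 arrays concerned (0.083), without scrambled replicate 1 (0.061) or 3 (0.14), without replicate 1 or 2 of shRNA 5 (0.14 each) and without any 1 array of shRNA 4 (0.054 to 0.066). For shRNA 4 the value of -9.01% missed the threshold (0.22). The Ing1 call with shRNA 5 was also lost without replicate 2 of both the scrambled and the shRNA 4 group (0.054).

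The remaining 7 members did not pass with either Tet1 hairpin. Sap30 had the largest of these values, 8.92% with shRNA 4 and 16.0% with shRNA 5, with limma adjusted p of 0.44 and 0.14. It read 10.29, 10.21 and 10.25 with the scrambled hairpin, 10.31, 10.28 and 10.53 with shRNA 4, and 10.49, 10.56 and 10.33 with shRNA 5, so the shRNA 5 arrays lay above the scrambled ones and the shRNA 4 arrays overlapped them. Suds3 stood at 8.27% and 8.41%, Ing2 at 4.94% and 5.00%, and Phf12 at -4.92% and -10.0%. Hdac1 (-5.38% and -1.97%), Hdac2 (-0.92% and -4.36%) and Sap130 (-2.00% and -4.62%) had estimates within 6% of the scrambled level in both. Their 95% intervals were wider. Those of Hdac1 reached down to -14.4% (shRNA 4) and up to 8.31% (shRNA 5). Those of Hdac2 reached -14.5% (shRNA 5) and 10.8% (shRNA 4), and those of Sap130 -13.5% (shRNA 5) and 8.02% (shRNA 4). The 95% interval of Sap30 reached 24.1% with shRNA 4 and 32.1% with shRNA 5, and that of Ing2 reached 21.7% with both. No member passed in the comparison of shRNA 5 with shRNA 4 (0 of 10 with limma, also 0 at an unadjusted p under 0.05, against 0.141% of all probe sets, 0.0566% higher and 0.0849% lower).

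The response of the members to both targets was compared in a fit of all 15 arrays, as the mean Tet1 effect minus the Sin3A effect. In this test 5 of 10 members differed, 2 with a positive and 3 with a negative difference, against 20% of all probe sets (11.3% and 8.71%). The count of 5 includes the targeted Sin3a, whose difference was set by the design. Among probe sets above the median level, fitted alone, 38.6% differed. Ing2 (-0.80 ± 0.11, SE, limma adjusted p = 0.00014), Ing1 (-0.73 ± 0.07, 7.9e-06) and Sap130 (-0.39 ± 0.07, 0.0014) were higher relative to their scrambled arrays in the Sin3A knockdown than in the Tet1 knockdowns. Phf12 (0.30 ± 0.08, 0.018) and the targeted Sin3a (1.30 ± 0.07, 5e-08) were lower in the Sin3A knockdown. Sap30 had a difference of -0.23 (limma adjusted p = 0.13) and Sin3b one of -0.11 (0.36), with 95% intervals of -0.44 to -0.01 and -0.26 to 0.05. For these genes a difference between the knockdowns was not shown. Sap30 passed in 1 of 20 alternative analyses, without replicate 3 of shRNA 4 (0.049), and Hdac2, at -0.20 (0.12), in 1, without scrambled replicate 2 of the Tet1 set (0.039).

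The wider complex was described with 20 further subunits and partners, of which 19 were measured. With the Sin3A shRNA 4 rose and 5 fell, and 10 did not pass, so 47.4% were called against 24.8% of all probe sets. All 19 lay above the median probe set in every group, and among probe sets above the median level, fitted alone, 47.2% passed. The list was called in the fit of all probe sets. The 47.2% came from a fit with its own adjustment, so the shares are not directly comparable. The median difference of the 19 was 0.00, and their median absolute difference was 0.21. Over the alternative analyses 2 to 4 rose and 3 to 7 fell. With either Tet1 hairpin 0 of the 19 passed with limma, against 11.6% and 13.8% of all probe sets (1 with shRNA 4 and 4 with shRNA 5 at an unadjusted p under 0.05). Among probe sets above the median level the shares were 25.6% and 30.4%. In some alternative analyses up to 1 rose with shRNA 4, and up to 2 rose and up to 2 fell with shRNA 5.

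Sap25, which encodes a SIN3-associated protein that interacts with the scaffold, fell from 10.36 ± 0.13 to 9.07 ± 0.14 (SD, n = 3 each), a 2.45-fold decrease (limma adjusted p = 0.00011). With the Tet1 hairpins Sap25 stood at 0.04 and -0.06 on the log2 scale and did not pass. The chromatin-binding paralogues Arid4a and Arid4b rose by 0.34 and 0.32, and the Sap30 paralogue Sap30l by 0.25. The metastasis suppressor gene Brms1 rose by 0.22 while its paralogue Brms1l fell by 0.29. Morf4l1, which encodes the MRG15 protein that Phf12 connects to SIN3, fell by 0.30, its relative Morf4l2 fell by 0.22 and the forkhead factor gene Foxk2 fell by 0.17 (adjusted p from 0.0073 to 0.044 over these 8 genes, limma). Of these, Sap30l, Arid4a and Brms1l passed in all 12 alternative analyses, as Sap25 did, while the others passed in 5 to 11. The histone chaperones Rbbp4 and Rbbp7, shared with other chromatin complexes, did not pass (0.05 and 0.10).

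**Figure D4:**
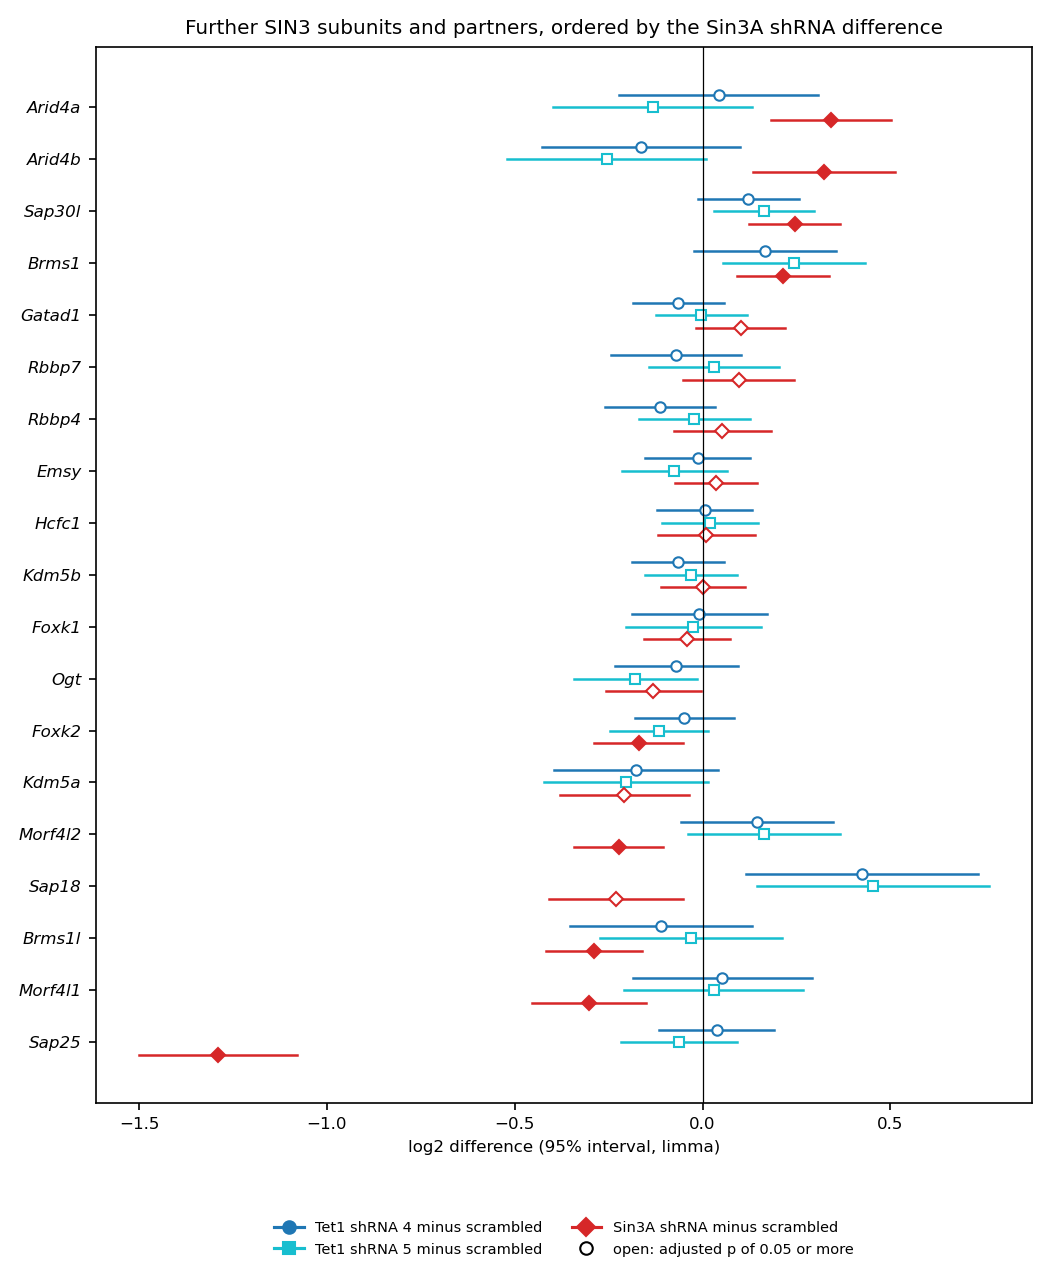
Log2 difference from the scrambled arrays of the same set for the 19 further subunits and partners, with 95% intervals from limma (n = 3 arrays per group), ordered by the value with the Sin3A shRNA; filled symbols passed an adjusted p under 0.05. Sap25 stands at -1.29 with the Sin3A shRNA (diamonds) and near 0 with both Tet1 hairpins, and no Tet1 symbol is filled.

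The DNA-binding factors that bring SIN3 to promoters include the MAD family, dimer partners of MAX that oppose MYC. Of 15 such factors measured, 5 rose and 3 fell with the Sin3A shRNA, and 7 did not pass. That was 53.3% called, against 24.8% of all probe sets (12.2% higher and 12.6% lower). All 15 lay above the median probe set in every group, and among probe sets above the median level, fitted alone, 47.2% passed. In the alternative analyses 3 to 5 of the factors rose and 1 to 3 fell. Among MAX partners Mxd4 rose by 0.62, Mxi1 by 0.38 and Mnt by 0.24, while Mxd1 (-0.11, limma adjusted p = 0.24) and Mxd3 (0.18, 0.11) did not pass and Mga fell by 0.29. Klf10 rose by 0.28 and the neuronal repressor gene Rest by 0.23. Nanog fell by 0.27 and Elk1 by 0.29 (adjusted p from 0.00065 to 0.029 over the 8 genes that passed, limma). Rest and Elk1 each passed in 7 of 12 alternative analyses and Mnt and Mga each in 10, and Mxd4, Mxi1, Klf10 and Nanog in all 12. In the Tet1 set Rest (-0.22 and -0.23, past the threshold in 7 and 11 of 16 alternatives) and Klf10 (-0.32 and -0.30) fell with both hairpins, and with shRNA 5 Mnt (-0.37) and Elk1 (-0.30) fell and Max rose (0.26). Of 16 alternatives, the Elk1 call passed in 6, Max in 13 and Mnt in 14, and Klf10 in 13 for each hairpin. The list's share called was 13.3% with shRNA 4, against 11.6% of all probe sets, and 33.3% with shRNA 5, against 13.8%. Among probe sets above the median level the shares were 25.6% and 30.4%. The responses to both targets differed for 40.0% of these factors, against 20% of all probe sets and 38.6% of those above the median level, fitted alone. These were Mxd4 (-0.70), Klf10 (-0.59), Mnt (-0.56), Rest (-0.45), Mxi1 (-0.41) and Nanog (0.32), with limma adjusted p between 0.00013 and 0.0077.

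The genes whose values over the 15 arrays, each minus the scrambled mean of its set, were most like those of Sin3a were Cpsf4l (Pearson r = 0.994), Dhdh (0.990), Xkr5 (0.984), Pmp22 (0.982) and Clstn3 (0.978), among 18150 candidates. The points share their control groups, and 3 of them are the Sin3A shRNA arrays, on which Cpsf4l fell by 1.34 and Pmp22 by 1.54 on the log2 scale. These correlations are a description of 15 arrays and were not tested. Sin3b, which was lowest with Tet1 shRNA 5, was most like Ctsl (r = 0.956), Wdr45 (0.933), Mtch1 (0.932), Rab17 (0.924) and Ano9 (0.921). Ctsl, a lysosomal protease gene, fell by 0.60 with shRNA 4, 0.96 with shRNA 5 and 0.48 with the Sin3A shRNA.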

How the data were processed

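Each sample was measured on its own Affymetrix expression array. The deposited table holds log2 expression values per probe set. The tools affy, RMA and limma are named, per the submitters' processing notes, without version or order, and no genome build is named there. Tied values between arrays occurred in 49.1% of probe sets in the Tet1 set and 0% in the Sin3A set.

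Probe sets were named by the platform annotation. Of 21212 probe sets, 18786 had exactly 1 symbol. Members, lists and the rule for named genes (all members, list genes past the threshold, a few fixed subunits, and the 5 genes most like Sin3a and Sin3b) were chosen with earlier results of these data known.

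Linear models (limma 3.58.1, R 4.3.3, two-sided) used 9 arrays for the Tet1 set, 6 for the Sin3A set and 15 for their difference, with Benjamini-Hochberg adjustment over all probe sets and a threshold of 0.05. The fits were also run on simulated data with noise drawn independently for each array. Some real arrays of different groups deviated together (r up to 0.517 in the Tet1 set), which the simulation did not cover. Exact permutation tests used scipy 1.17.1. The number of arrays limits the precision. Alternatives were other scalings, a filter on dim probe sets, an intensity trend, a replicate block, other arrays in the fit and leaving out arrays.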

Additional observations from a re-analysis of the deposited data

Results flagged for a closer look

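For 5 members the response differed between the knockdowns, by the test of the mean Tet1 effect minus the Sin3A effect (limma over 15 arrays, adjusted over all probe sets). The differences were 1.30 for Sin3a, the gene targeted in one of them, -0.39 for Sap130, -0.73 for Ing1, -0.80 for Ing2 and 0.30 for Phf12. All 5 passed in each of 20 alternative analyses. Both effects were taken against separate scrambled groups, and the array means of the sets differ (7.08 to 7.11 and 8.09), so set and target cannot be told apart.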

How the results depend on the processing

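None of the 6 member calls in the Sin3A comparison was lost, with 6 to 8 members passing over 12 alternatives, while calls of other genes were, such as Foxk2, which passed in 5. The planned use of other probe sets was not run, since each member had 1. When arrays were left out, 0 to 1 members passed for Tet1 shRNA 4, 1 to 3 for shRNA 5, 0 between the hairpins and 5 to 6 for the difference of effects. Replicate numbers do not pair the arrays by the labels, and deviations of same-numbered arrays correlated between -0.287 and 0.517 in the Tet1 set and between -0.274 and 0.021 in the Sin3A set. With a replicate block, 1 member passed for shRNA 4, 2 for shRNA 5, 0 between the hairpins, 6 for Sin3A and 5 for the difference of effects, and Ing1 with shRNA 5 was the one call lost. Signs turned only for values that had not passed. After repeated quantile normalization Hdac2 with shRNA 4 was 0.01 and Suds3 between the hairpins -0.0226. With 1 array left out, values ranged from -0.0683 to 0.0382 for Hdac2 with shRNA 4, from -0.0582 to 0.0122 for Hdac1 with shRNA 5 and from -0.0419 to 0.0285 for Hdac1 in the difference of effects. Between the hairpins they ranged from -0.00234 to 0.0667 for Sin3a, -0.0664 to 0.0131 for Sap130, -0.0192 to 0.0157 for Suds3, -0.0557 to 0.079 for Ing2 and -0.121 to 0.00115 for Phf12. Without replicate 2 of both the scrambled and the shRNA 4 group, chosen after seeing the data because these arrays deviated together, Ing2 between the hairpins was -0.0557. The count of all probe sets passing between the hairpins, 30, was 72 with dim probe sets left out, 48 with an intensity trend, 0 to 36 with 1 array left out and 0 with a replicate block or with only 2 groups.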

Other observations

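Of 23 other histone deacetylase and acetyltransferase genes, 0 rose and 3 fell with the Sin3A shRNA (limma; 6 had an unadjusted p under 0.05), so 13.04% were called against 24.8% of all probe sets. These were the acetyltransferase genes Kat5 (-0.24) and Kat2b (-0.22) and the class IIa deacetylase gene Hdac5 (-0.18), with limma adjusted p of 0.014, 0.025 and 0.043. The Kat5 call passed in 12 of 12 alternative analyses, that of Kat2b in 7 and that of Hdac5 in 6. With the Tet1 hairpins Hdac7, another class IIa gene, rose by 0.36 with shRNA 4 (past the threshold in 16 of 16 alternatives) and 0.26 with shRNA 5 (10 of 16), and the deacetylase gene Sirt1 rose by 0.24 with shRNA 4 (limma adjusted p = 0.049, past the threshold in 5 of 16 alternatives). The list's share called was 8.70% with shRNA 4 and 4.35% with shRNA 5, against 11.6% and 13.8% of all probe sets. Hdac3 and Hdac8, the other class I deacetylase genes, stood at 0.01 and -0.12 with the Sin3A shRNA and did not pass.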
